A study of Homo sapiens with 30 samples.

Results

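The collagen chain genes are described here in U87-MG (U87) and U251-MG (U251), 2 cell lines grown from human glioblastomas, kept with or without interferon-γ (IFN-γ) for up to 28 days. A gene was taken as a member if its symbol had the form of a collagen α chain (COL, a number, A and a number) in the tables of both lines and its mean over all used libraries of at least 1 line reached 0.5 TPM, the share of a gene in the transcripts of a library scaled to a sum of 1000000. Of the 61471 genes shared by the tables, 44 had such a symbol and 38 were members. The lines reached the limit together for 26 members, U87 alone for 4 (COL5A3, COL10A1, COL15A1 and COL22A1) and U251 alone for 8 (COL2A1, COL4A1, COL4A3, COL4A4, COL14A1, COL19A1, COL24A1 and COL25A1), so that 30 members were tested in U87 and 34 in U251. By the higher of its means in the lines, the members just inside the limit were COL25A1 at 0.678 TPM in U251 and COL20A1 at 0.679 TPM in U87 (0.567 TPM in U251), and the nearest genes left out were COL3A1 at 0.378 TPM and COL9A1 at 0.307 TPM, both in U87. COL6A5, COL6A6, COL23A1 and COL26A1 were also below the limit in both lines.

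Bulk RNA was sequenced from 5 groups per line. Untreated cells carried a day 3 label. The treated groups had 3, 14 or 28 days of continuous IFN-γ (D3, D14 and D28). In the washout group (D28WO) IFN-γ was taken away after day 14 and cells were collected on day 28. No untreated library carried a day 14 or 28 label. In comparisons of D14, D28 or D28WO with untreated cells, time in culture and treatment therefore cannot be told apart. All cells were wild type and came from the same medium with serum; the dose is not printed because the sources used here disagree on it, and they also disagree on the day of the untreated cells. U251 had 3 libraries per group. U87 had 3 in the untreated, D28 and D28WO groups and 2 in D3 and D14, since a pair of columns shared a name and were not used, which left 28 libraries of the 30. The replicates were separate culture preparations of 1 line. The paper states that ICLAC counts both lines among those often misidentified, and that the study did not check their identity again. These points limit each group as a model of a tumour.

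Collagens are the main structural proteins of the extracellular matrix and are built from 3 α chains wound into a triple helix. Fibrillar collagens (types I, II, III, V, XI, XXIV and XXVII) form or seed the banded fibrils of connective tissue. Basement membrane chains include type IV, which makes the sheet-like network under epithelia and around vessels, types XV and XVIII of the multiplexin family, and type VII, which anchors the sheet to the stroma. Transmembrane collagens (XIII, XVII, XXV) sit in the plasma membrane and can be shed from it. Fibril-associated collagens coat fibrils, type VI forms beaded filaments around cells, and types VIII and X form short-chain networks. Normal brain tissue holds little fibrillar collagen outside vessels and meninges, whereas glioblastomas and their cultured lines often express several types. IFN-γ is known in fibroblasts as a suppressor of type I collagen genes.

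The treatment itself was read from IRF1, a transcription factor induced by interferons, and GBP1, an interferon-induced GTPase. In U87, IRF1 was at 133 TPM ± 2.78 (SD, n = 3) untreated, 448 TPM ± 3.34 (SD, n = 2) at D3 and 122 TPM ± 17.1 (SD, n = 2) at D14. It was at 480 TPM ± 51.7 (SD, n = 3) in D28 and 510 TPM ± 46.5 (SD, n = 3) in D28WO libraries. GBP1 was at 35.9, 225, 34.2, 251.2 and 221 TPM in the same groups. The U87 D14 libraries were therefore at the untreated level of both genes, and the D28WO libraries, from cells without IFN-γ for the second 14 days, were close to the D28 level. In U251, IRF1 was at 141, 589, 300, 603 and 620 TPM and GBP1 at 46.4, 445, 151, 477 and 464 TPM, so D14 stood between the untreated and D3 levels and D28WO again matched D28. These are transcript levels of 2 genes and do not settle how the cells were treated. The groups are those of the labels, and every value given for D14 and D28WO below is that of the libraries so labelled. Of 8 glioma and astroglial markers, SOX2 and AQP4 were below 0.5 TPM in every U87 library.

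Values are TPM as deposited, which are scaled to gene length within a library, so levels of different chains can be set side by side. Since a sheet of the study calls such matrices CPM, which are not scaled to length, this was checked on genes with 1 annotated transcript: the 10th percentile of their values above 0 was 2.69 to 3.02 times as high for transcripts of 1000 to 1400 bases as for those of 2800 to 4000 bases over the 28 libraries, where the longer were 2.75 to 2.79 times as long by their medians. Differences are log2 fold changes of TPM + 1 from limma with all 5 groups of a line in 1 fit, given with their standard error (SE), and "rose" and "fell" are used only for a Benjamini-Hochberg adjusted p under 0.05 over all genes tested in that line. Adding 1 understates changes of low genes. The median gene moved by 0.20, 0.15, 0.19 and 0.25 (log2) in U87 between untreated cells and, in turn, D3, D14, D28 and D28WO, and by 0.13, 0.10, 0.16 and 0.02 in U251. A log2 change of a collagen gene can be read against these medians. In bulk RNA, fewer cells that express a gene and less RNA per cell cannot be told apart.

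The lines used overlapping but unequal sets of chains before treatment. Summed over the 38 members, collagen transcripts made up 2493 TPM ± 117 (SD, n = 3) in untreated U87 and 2563 TPM ± 21.1 (SD, n = 3) in untreated U251. Beaded filament chains took 41.0% of that sum in U87 and 24.9% in U251, fibrillar chains 28.1% and 34.1%, basement membrane chains 11.1% and 20.4%, and transmembrane chains 5.40% and 0.941%. In U87 the highest means over all libraries by type were COL6A3 (381 TPM) and COL6A2 (380 TPM), COL1A2 (222 TPM), COL16A1 (165 TPM), COL7A1 (145 TPM), COL8A1 (109 TPM) and COL13A1 (57.1 TPM). In U251 they were COL6A2 (348 TPM), COL1A2 (206 TPM), COL4A2 (158 TPM), COL14A1 (112 TPM), COL8A1 (44.1 TPM) and COL13A1 (22.1 TPM). COL28A1, a chain outside these types, had a mean of 0.946 TPM in U87 and 0.717 TPM in U251. COL14A1, which coats type I fibrils, lay at 124, 128 and 124 TPM in the untreated U251 libraries and at 0.241 TPM or below in every U87 library.

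**Figure D1:**
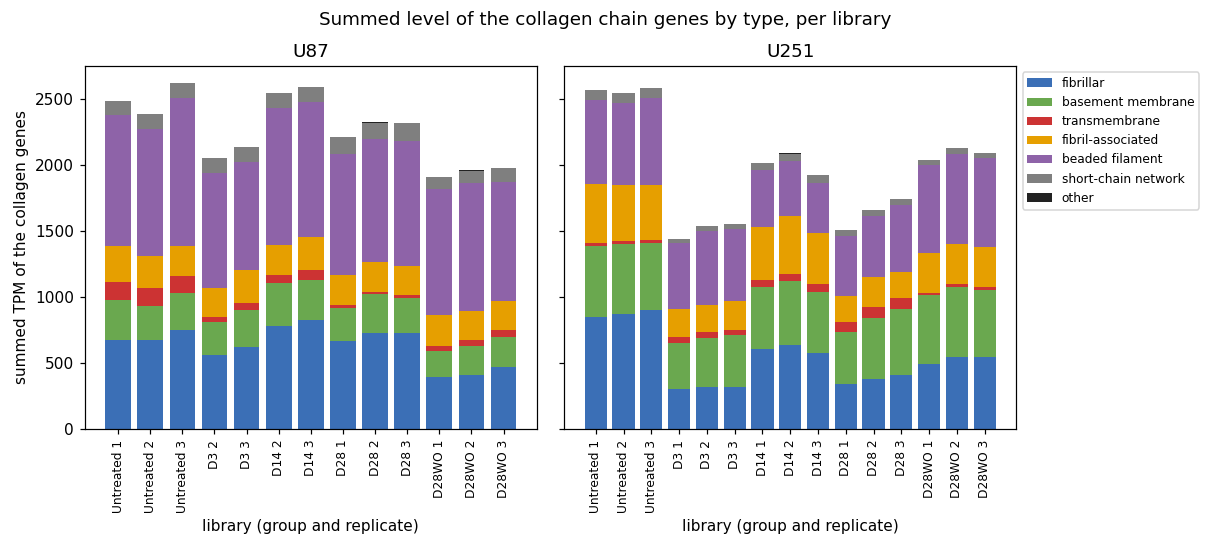
Summed TPM of the collagen chain genes by type (bar segments, linear axis from 0) in each library of U87 and U251. The mean sum over all members was 2563 TPM untreated and 1508 TPM at D3 in U251, the difference lying mostly in the fibrillar and fibril-associated segments, and the transmembrane segment is smallest at D28 in U87 and largest at D28 in U251.

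Some chains that share a trimer stood far apart in level, and others did not. Type I collagen is normally made of α1(I) and α2(I) chains, encoded by COL1A1 and COL1A2. Both were abundant in U87, where COL1A1 was at 268, 269 and 306 TPM and COL1A2 at 208, 199 and 238 TPM in the untreated libraries. In U251, COL1A2 was at 316, 322 and 333 TPM, but COL1A1 only at 7.31, 4.09 and 8.98 TPM. The ratio of COL1A2 to COL1A1 was between 0.739 and 1.33 over the 13 U87 libraries and between 32.0 and 166 over the 15 U251 libraries, so the ranges do not meet. For type VI, COL6A3 was between 1.60 and 3.29 times COL6A1 in U87 and between 0.0052 and 0.0461 times in U251. Other partners lay closer together in both lines. COL6A2 was between 1.55 and 3.03 times COL6A1 in U87 and between 1.14 and 2.49 times in U251, and COL5A1 between 1.93 and 2.79 times COL5A2 in U87 and between 1.19 and 1.68 times in U251. These ratios are descriptions, as the tables of the lines were normalized separately.

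**Figure D2:**
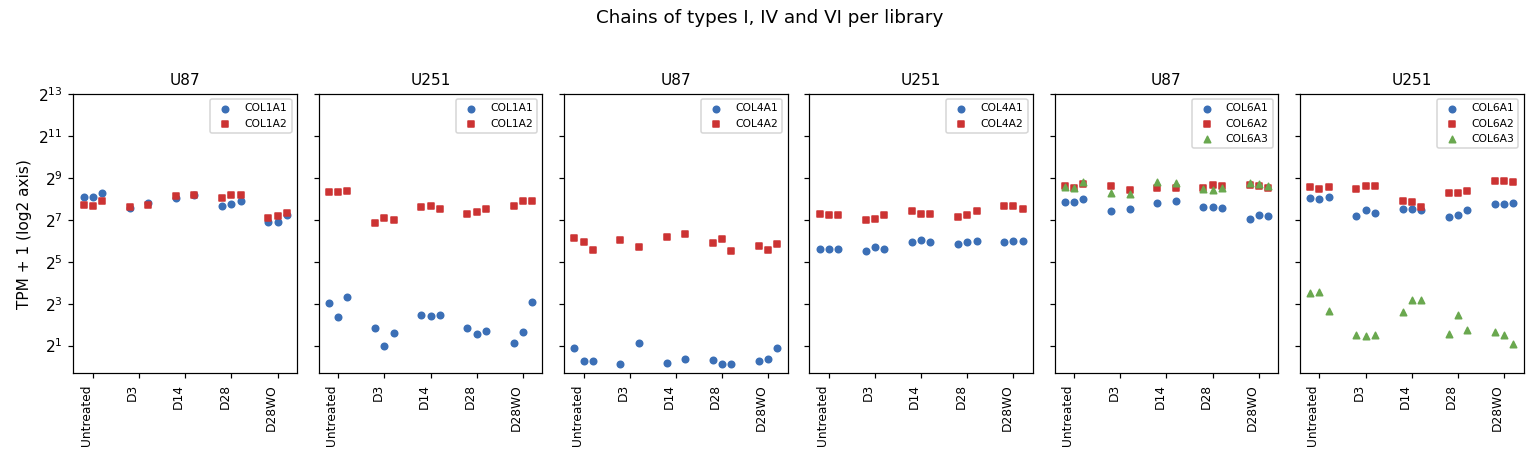
TPM + 1 (log2 axis) of the chains of type I (left pair of panels), type IV (middle pair) and type VI (right pair) in each library, by group. COL1A1, COL4A1 and COL6A3 are far from their partner chains in 1 line and near them in the other: COL1A2 was 32.0 to 166 times COL1A1 in U251, and COL4A2 43.5 to 828 times COL4A1 in U87.

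Type IV chains of head-to-head genes were unequal in level. The 6 genes are arranged head to head in 3 pairs, and the stretch between the COL4A1 and COL4A2 starts in RefSeq is printed because the genes lie head to head across it while only COL4A2 was well expressed in U87. RefSeq (GRCh38.p14) places 126 bases between the 2 starts. GENCODE release 44 places COL4A1 on chromosome 13 from 110148963 to 110307157 on the minus strand and COL4A2 from 110305812 to 110513209 on the plus strand, so that the gene spans overlap there and the printed stretch lies before COL4A1 but inside the wider COL4A2 span. The stretch ends before a COL4A2 exon annotated within those 126 bases, is written on the plus strand, and carries a GC box (GGGCGG) and a CCAAT box in capitals.
COL4A1 and COL4A2, chr13:110307158-110307257: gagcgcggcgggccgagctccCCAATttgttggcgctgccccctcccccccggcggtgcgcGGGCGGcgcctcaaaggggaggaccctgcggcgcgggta
COL4A2 was at 69.9, 60.0 and 45.6 TPM in untreated U87, with COL4A1 at 0.874, 0.205 and 0.192 TPM in the same libraries. In untreated U251 COL4A2 was at 153, 151 and 147 TPM and COL4A1 at 47.9, 47.3 and 46.9 TPM. COL4A2 thus exceeded COL4A1 by 2.39 to 3.25 times in U251 and by 43.5 to 828 times in U87, where COL4A1 was at 1.16 TPM or below and the ratio is loosely set. The COL4A5 and COL4A6 starts are 379 bases apart, and COL4A5 exceeded COL4A6 by 1.51 to 2.85 times in U87 and 2.09 to 3.87 times in U251, so this pair kept a like ratio in both lines. COL4A3 and COL4A4, 418 bases apart, had means of 1.03 and 0.822 TPM in U251 and 0.479 and 0.292 TPM in U87.

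The transmembrane genes COL13A1 and COL17A1 lie on chromosome 10. The bases upstream of their RefSeq starts are shown because both genes moved in opposite directions between the lines at D28, as described below. Letters are 5′ to 3′ on the strand of the gene. Capitals in COL17A1 mark a match to the core of the interferon-stimulated response element (GAAA, any 2 bases, GAAA, here on the opposite strand) and a CCAAT box on the opposite strand.
COL17A1, chr10:104085881-104086130, minus strand: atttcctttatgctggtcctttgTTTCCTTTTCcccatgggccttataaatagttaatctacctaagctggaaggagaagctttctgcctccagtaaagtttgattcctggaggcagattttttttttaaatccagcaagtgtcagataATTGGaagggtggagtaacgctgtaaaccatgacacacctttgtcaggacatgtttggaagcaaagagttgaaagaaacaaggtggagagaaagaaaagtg
COL13A1, chr10:69801656-69801879, plus strand: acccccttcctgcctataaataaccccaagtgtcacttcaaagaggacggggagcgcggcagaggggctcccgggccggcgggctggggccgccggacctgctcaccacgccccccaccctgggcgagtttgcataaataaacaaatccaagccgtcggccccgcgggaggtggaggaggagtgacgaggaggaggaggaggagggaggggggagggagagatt
No match to the response element core, the GC box or the CCAAT box was found on either strand in the COL13A1 stretch. RefSeq promoter windows of 250 bases before to 50 after a start were on hand for 28 members, 39 windows in all. The response element core was in 1 of the 39 (COL17A1), against 3.57% of 35116 windows of all genes. The gamma-activated site (TTCNNNGAA, N being any base) was in 2 of the 39 (COL7A1 and COL11A2), against 7.66%. The GC box was in 22, against 15786 of all 35116, and the CCAAT box in 13, against 34.6%. A match is a description of these letters and not a binding site.

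In U251 more collagen genes fell than rose against untreated cells. At D3, 15 of the 34 tested fell (44.1%) and 4 rose (11.8%), where 16.0% of all 23667 genes tested fell and 24.9% rose. At D14, 10 fell and 4 rose, beside 7.31% and 13.8% of all genes, and the split was 10 to 2 with quantile normalization or median-ratio size factors. At D28, 16 fell and 7 rose, beside 14.7% and 25.9% of all genes. After washout 16 fell and 4 rose against untreated cells, beside 13.4% and 14.3% of all genes. Against D28, the D28WO libraries had 11 collagen genes higher and 7 lower, beside 10.3% and 18.8% of all genes. The median log2 difference of the tested members in the 4 comparisons with untreated cells was −0.46, −0.10, −0.43 and −0.54 in order of day, with the median gene at 0.13, 0.10, 0.16 and 0.02.

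U87 had fewer collagen calls. At D3, 6 of the 30 tested fell (20%) and 2 rose (6.67%), where 4.28% of all 22918 genes fell and 12.4% rose, and the count of those that rose was 1 with median-ratio size factors and 0 after quantile normalization. At D14, 2 fell and 3 rose, beside 1.02% and 4.14% of all genes, or 2 and 2 with median-ratio size factors. At D28, 5 fell and 3 rose, beside 6.55% and 17.2%, or 6 and 2 with median-ratio size factors. The washout libraries stood furthest from untreated cells: 11 fell and 5 rose, beside 13.4% and 28.6% of all genes, or 13 and 3 with median-ratio size factors. Against D28, 9 were lower and 5 higher in D28WO, beside 8.44% and 9.90% of all genes. Median log2 differences of the members from untreated were −0.03, 0.16, −0.02 and −0.19, with the median gene at 0.20, 0.15, 0.19 and 0.25. Of 51 calls in U87, 21 held under every other setting and every library left out, and of 94 in U251, 80 did, with the limit on size not counted here. A log2 change over 1 as well left 11 and 37 of them. The counts by type given below are to be read against the shares of all genes given here for the same comparison. With no group in the fit beyond those compared, 20 of the 51 U87 calls were lost.

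**Figure D3:**
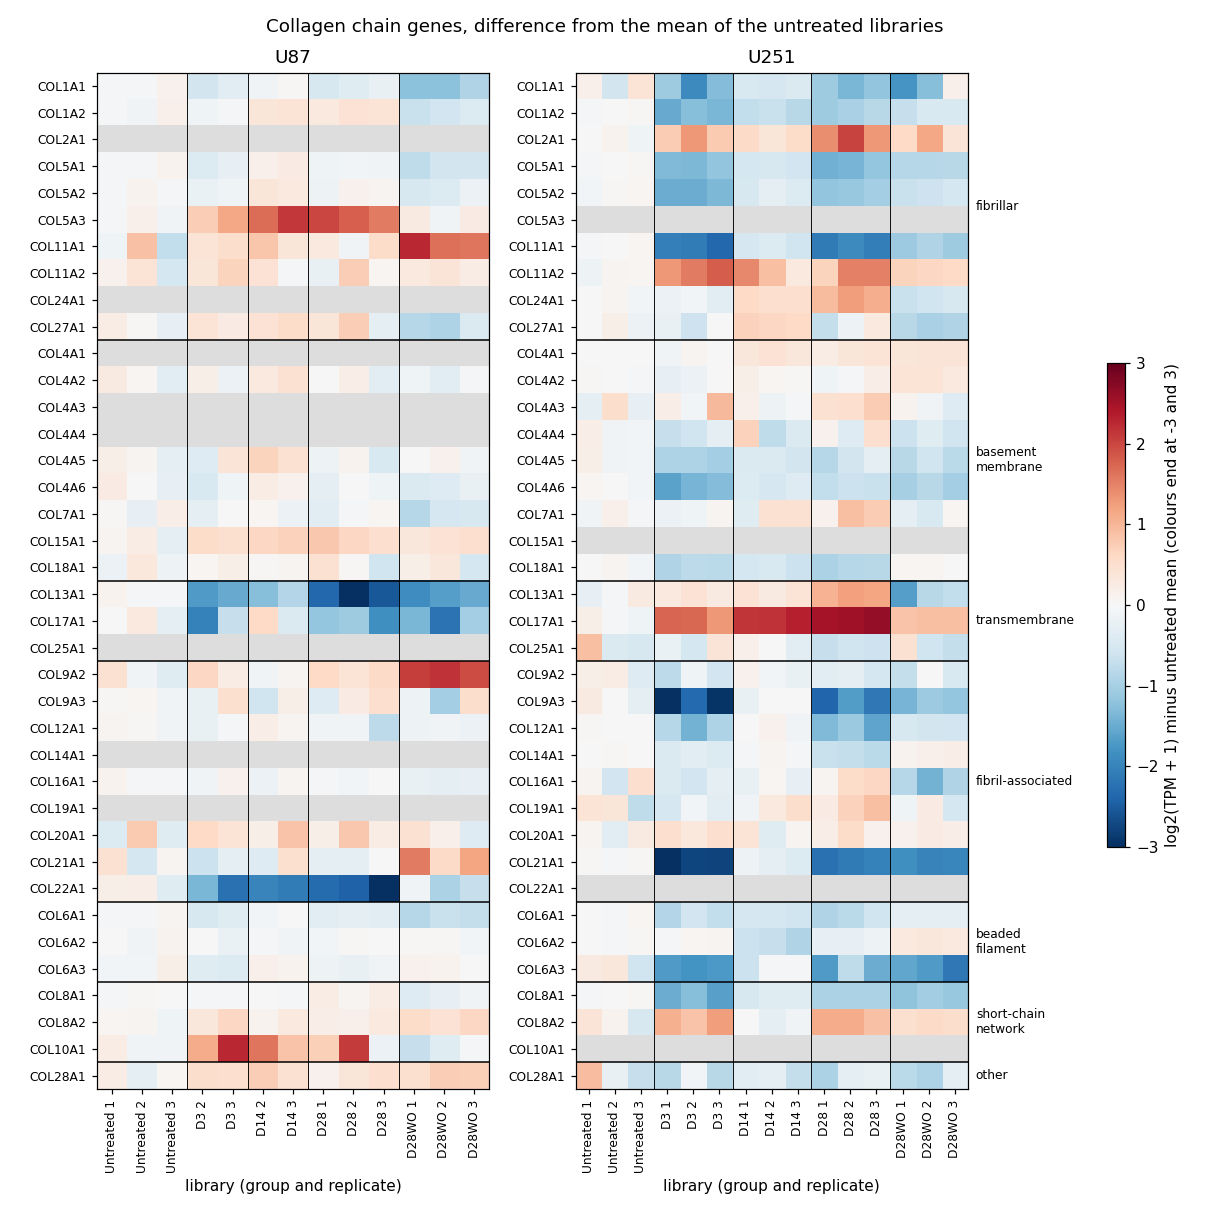
Difference of log2(TPM + 1) from the mean of the untreated libraries (colour, ending at −3 and 3) for the 38 members (rows, by type) in each library (columns, by group) of U87 and U251. Rows in grey had a mean under 0.5 TPM in that line and were not tested. The fibrillar rows COL1A2, COL5A1, COL5A2 and COL11A1 are blue in all treated U251 libraries, and COL17A1 is red there, while in U87 COL13A1 is blue in all treated libraries.

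Fibrillar genes carried much of the loss in U251. Their summed level was 847 to 902 TPM untreated, 303 to 320 TPM at D3, 575 to 637 TPM at D14, 343 to 408 TPM at D28 and 493 to 547 TPM at D28WO, with no overlap between untreated and any other group. Of the 9 tested, 5 fell and 2 rose at D3, 4 fell and 2 rose at D14 (4 and 0 with both other scalings), 5 fell and 3 rose at D28, and 6 fell and 0 rose at D28WO. COL11A1, a chain of the minor fibril type XI that sets fibril diameter, was at 230, 236 and 249 TPM untreated and at 57.0, 54.9 and 45.4 TPM at D3. It was at 168, 180 and 158 TPM at D14, 54.4, 62.6 and 56.2 TPM at D28 and 112, 127 and 113 TPM at D28WO. It fell by 2.17 (SE 0.09, limma adjusted p = 3.43e-10) at D3 and by 2.03 (SE 0.09, limma adjusted p = 6.21e-10) at D28. Its falls were 0.50 (limma adjusted p = 0.00129) at D14 and 1.02 (limma adjusted p = 1.14e-06) at D28WO. The D14 and D28WO libraries lay between the D28 and untreated ones.

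Other high fibrillar genes of U251 moved along similar lines. COL1A2 went from 316, 322 and 333 TPM untreated to 113, 133 and 124 TPM at D3, 193, 203 and 180 TPM at D14, 153, 165 and 182 TPM at D28 and 201, 236 and 235 TPM at D28WO. It fell by 1.39 (SE 0.08) at D3, 0.75 (SE 0.08) at D14, 0.96 (SE 0.08) at D28 and 0.53 (SE 0.08) at D28WO, with limma adjusted p of 0.000218 or below. COL5A1 and COL5A2, which encode the type V chains that start type I fibrils, behaved alike. COL5A1 was at 164, 169 and 173 TPM untreated, 66.7, 65.4 and 74.0 TPM at D3, 117, 121 and 114 TPM at D14, 62.0, 63.5 and 75.3 TPM at D28 and 92.2, 93.1 and 94.3 TPM at D28WO. COL5A2 was at 108, 116 and 118 TPM untreated, 39.8, 40.1 and 44.2 TPM at D3, 82.1, 93.6 and 84.9 TPM at D14, 49.4, 51.0 and 55.6 TPM at D28 and 70.9, 74.1 and 79.4 TPM at D28WO. Both fell in all 4 comparisons with untreated cells, by 1.29 (SE 0.07) and 1.44 (SE 0.07) at D3, and all treated libraries of both lay below all untreated ones. COL1A1 was low throughout, at 7.31, 4.09 and 8.98 TPM untreated, 2.58, 1.00 and 2.06 TPM at D3, 4.45, 4.29 and 4.58 TPM at D14, 2.60, 1.90 and 2.29 TPM at D28 and 1.21, 2.10 and 7.34 TPM at D28WO. Its fall at D3 was 1.42 (SE 0.41, limma adjusted p = 0.0127) and lost its call without untreated replicate 3 or D3 replicate 2 (−1.82 to −1.17 over the alternatives). Its fall at D28, 1.21 (SE 0.41, limma adjusted p = 0.0301), lost its call without any of 5 of the 6 libraries, all but untreated replicate 2.

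A smaller set of fibrillar genes went up in U251 from low levels. COL11A2, the partner of COL11A1 in type XI, was at 2.19, 2.79 and 2.72 TPM untreated, 7.70, 9.40 and 11.4 TPM at D3, 8.66, 5.62 and 3.35 TPM at D14, 4.68, 9.12 and 9.16 TPM at D28 and 4.66, 4.51 and 4.35 TPM at D28WO. It rose by 1.55 (SE 0.29, limma adjusted p = 0.00064) at D3 and by 1.23 (SE 0.29, limma adjusted p = 0.00346) at D28, the second ending at an adjusted p of 0.0529 with quantile normalization. Its rise at D14, 0.88, was lost without each library but D14 replicate 3 and under 7 other settings, with values from 0.59 to 1.17. COL2A1, the cartilage type II chain, was at 0.237, 0.326 and 0.131 TPM untreated and at 1.07, 2.05 and 1.11 TPM at D3. It was at 0.838, 0.573 and 0.812 TPM at D14, 2.21, 4.01 and 2.01 TPM at D28 and 0.856, 1.75 and 0.612 TPM at D28WO. It rose by 1.57 (SE 0.28, limma adjusted p = 0.000439) at D28, and by 0.95 (SE 0.28, limma adjusted p = 0.0134) at D3, which was lost without D3 replicate 2 (0.77) or with quantile normalization (0.52). COL24A1 was at 1.78, 1.99 and 1.66 TPM untreated, 1.48, 1.67 and 1.26 TPM at D3, 3.26, 3.00 and 2.98 TPM at D14, 4.39, 5.66 and 4.97 TPM at D28 and 0.773, 0.848 and 1.03 TPM at D28WO. It rose by 1.09 (SE 0.18, limma adjusted p = 0.000287) at D28 and was lower in D28WO than in D28 by 1.67 (SE 0.18), so its highest and lowest groups are the same day with and without washout. Because the limit was set on the mean over all libraries, genes this low were tested partly through the groups where they were high.

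In U87 the fibrillar genes changed less and the clearest difference was after washout. Their sum was 674 to 750 TPM untreated, 559 to 618 TPM at D3, 782 to 828 TPM at D14, 662 to 726 TPM at D28 and 392 to 468 TPM at D28WO. Of 8 tested, 5 fell and 1 rose at D28WO against untreated, and 6 were lower and 1 higher against D28. COL1A1 was at 268, 269 and 306 TPM untreated, 190 and 223 TPM at D3, 260 and 287 TPM at D14, 199, 218 and 238 TPM at D28 and 119, 119 and 149 TPM at D28WO. It fell by 1.12 (SE 0.11, limma adjusted p = 1.04e-05) at D28WO, a call that held under every alternative. Its falls of 0.44 at D3 and 0.36 at D28 were lost with quantile normalization, and without untreated replicate 3 or D3 replicate 2 at D3, and untreated replicate 3, D28 replicate 1 or D28 replicate 2 at D28 (values between −0.63 and −0.25, and between −0.55 and −0.17). COL1A2 was at 208, 199 and 238 TPM untreated, 197 and 208 TPM at D3, 276 and 284 TPM at D14, 264, 290 and 285 TPM at D28 and 134, 143 and 160 TPM at D28WO. It rose by 0.38 (SE 0.08, limma adjusted p = 0.00685) at D28, a difference of 0.19 from the median gene that lost its call with median-ratio size factors (0.20), and fell by 0.56 (SE 0.08, limma adjusted p = 0.000239) at D28WO. COL5A1, with falls of 0.33 at D3 and 0.62 at D28WO, and COL5A2, with a fall of 0.35 at D28WO, passed with smaller steps. The COL5A1 call at D3 was lost with quantile normalization, with only the compared groups in the fit and without untreated replicate 3 or D3 replicate 2, and that of COL5A2 without untreated replicate 2 or D28WO replicate 1 or 2. The 2 type I genes thus parted at D28 and were both lowest at D28WO.

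COL5A3 and COL11A1 stood out among the low fibrillar genes of U87. COL5A3, a less common type V chain, was at 1.07, 1.34 and 0.969 TPM untreated, 2.51 and 3.74 TPM at D3, 5.77 and 8.22 TPM at D14, 7.44, 6.31 and 5.27 TPM at D28 and 1.57, 0.981 and 1.53 TPM at D28WO. It rose by 1.90 (SE 0.27, limma adjusted p = 0.00587) at D14 and by 1.78 (SE 0.24, limma adjusted p = 0.000415) at D28, and was lower at D28WO than at D28 by 1.64 (SE 0.24, limma adjusted p = 0.001). The D14 libraries that lacked an IRF1 and GBP1 response were therefore high for COL5A3, and the washout libraries with high IRF1 and GBP1 were at its untreated level. Its D14 call was lost without D14 replicate 3 (log2 1.68) and its D3 call, 0.94, was lost without 4 of the 5 libraries, all but untreated replicate 2. COL11A1 was at 1.58, 4.17 and 0.699 TPM untreated, 2.74 and 3.08 TPM at D3, 4.06 and 2.63 TPM at D14, 2.47, 1.61 and 3.17 TPM at D28 and 12.6, 7.90 and 7.67 TPM at D28WO. It rose by 1.85 (SE 0.38, limma adjusted p = 0.00219) at D28WO against untreated and by 1.60 (SE 0.38, limma adjusted p = 0.0126) against D28, the second call being lost without D28WO replicate 1 (log2 1.39). COL27A1 was at 18.2, 15.8 and 12.8 TPM untreated, 21.0 and 18.5 TPM at D3, 21.0 and 23.1 TPM at D14, 20.2, 26.5 and 12.7 TPM at D28 and 8.14, 7.67 and 11.2 TPM at D28WO. It was lower at D28WO than at D28 by 1.01 (SE 0.24, limma adjusted p = 0.0121), a call lost without D28WO replicate 2 (log2 −0.92).

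**Figure D4:**
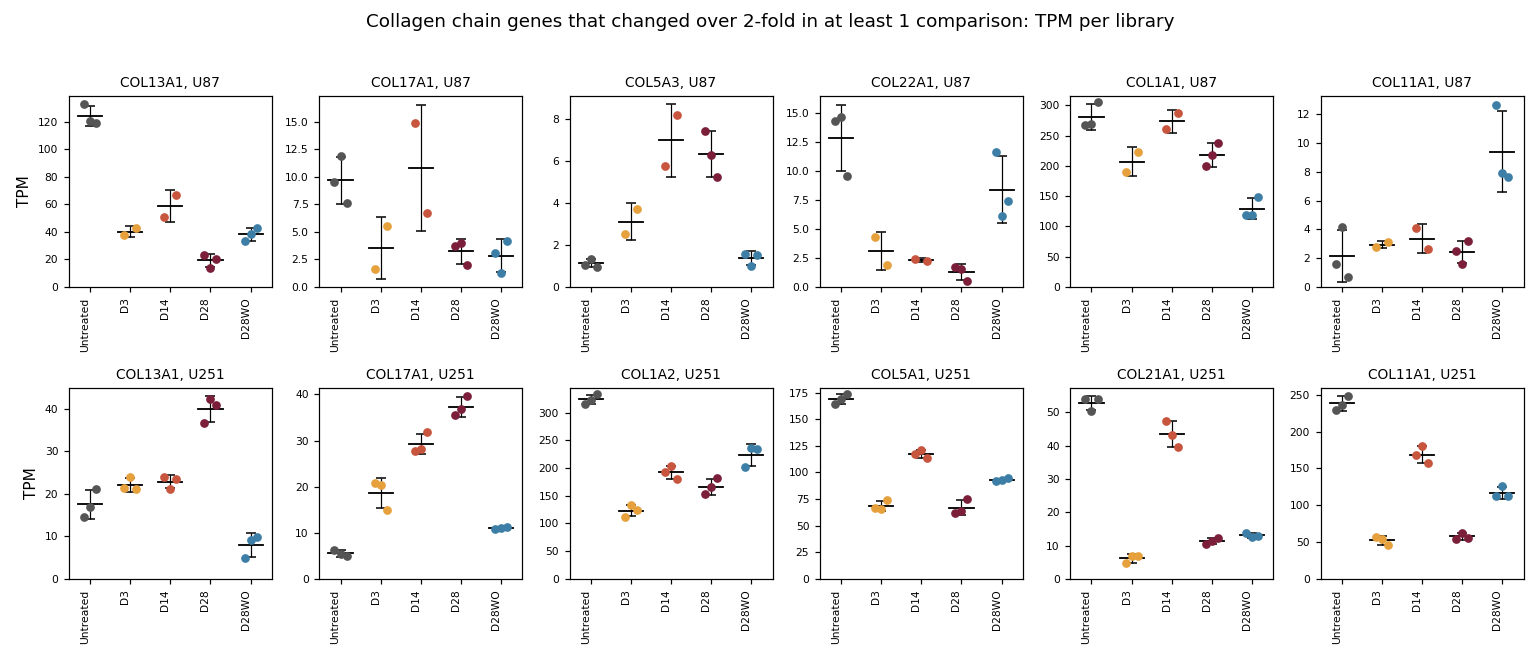
TPM in each library (points) with the group mean (bar) and SD (whiskers) for 6 collagen genes of U87 (top) and 6 of U251 (bottom), each panel on its own linear axis from 0; n is 3 per group, or 2 for U87 D3 and D14. COL13A1 is lower in all treated groups than untreated in U87, and in U251 is highest at D28 (36.6 to 42.4 TPM) and lowest at D28WO (4.86 to 9.93 TPM).

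The 2 transmembrane genes tested in both lines went in opposite directions at D28. In U251, of 3 tested, 1 rose at D3 and D14 and 2 at D28, while in U87, of 2 tested, 1 fell at D3 and D14 and 2 at D28 and D28WO. Of all genes, 24.9%, 13.8% and 25.9% rose at the 3 times in U251, and 4.28%, 1.02%, 6.55% and 13.4% fell in the 4 comparisons in U87. COL13A1, found at cell adhesion sites, was at 133, 121 and 119 TPM in untreated U87, 37.5 and 42.8 TPM at D3, 50.5 and 66.7 TPM at D14, 23.3, 13.8 and 20.3 TPM at D28 and 33.2, 38.6 and 42.7 TPM at D28WO. All 10 treated or washout libraries were below the 3 untreated ones. The fall was 1.61 (SE 0.19, limma adjusted p = 0.000234) at D3, 1.08 (SE 0.19, limma adjusted p = 0.0138) at D14, 2.66 (SE 0.17, limma adjusted p = 1.12e-06) at D28 and 1.68 (SE 0.17, limma adjusted p = 1.8e-05) at D28WO. The D14 call was lost without D14 replicate 2 (log2 −0.89), and D28WO was higher than D28 by 0.98 (SE 0.17, limma adjusted p = 0.00261). In U251 COL13A1 was at 14.6, 16.9 and 21.2 TPM untreated, 21.3, 23.9 and 21.1 TPM at D3, 23.9, 21.2 and 23.6 TPM at D14, 36.6, 42.4 and 40.9 TPM at D28 and 4.86, 9.24 and 9.93 TPM at D28WO. It rose by 1.16 (SE 0.20, limma adjusted p = 0.00036) at D28, fell by 1.08 (SE 0.20, limma adjusted p = 0.000991) at D28WO, and was lower at D28WO than at D28 by 2.23 (SE 0.20, limma adjusted p = 2.57e-06).

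COL17A1, a chain of the hemidesmosomes that hold epithelial cells to the basement membrane, was at 6.35, 5.29 and 4.95 TPM in untreated U251. It reached 20.8, 20.4 and 14.98 TPM at D3, 27.8, 28.2 and 31.8 TPM at D14 and 35.5, 36.8 and 39.6 TPM at D28, and was at 10.8, 11.1 and 11.2 TPM at D28WO. It rose by 1.59 (SE 0.13, limma adjusted p = 4.38e-07) at D3, 2.22 (SE 0.13, limma adjusted p = 5.9e-08) at D14, 2.56 (SE 0.13, limma adjusted p = 3.37e-09) at D28 and 0.89 (SE 0.13, limma adjusted p = 0.000156) at D28WO. Every treated library lay above every untreated one, all 4 calls held under every other setting except that D28WO was under the size limit of a log2 of 1, and D28WO was lower than D28 by 1.67 (SE 0.13, limma adjusted p = 9.14e-07). The summed level of 3 epithelial markers (EPCAM, CDH1 and KRT18) was 36.7 to 47.7 TPM untreated and 34.0 to 41.2 TPM at D28 in U251, with EPCAM below 0.5 TPM in all libraries of both groups. It was 23.2 to 28.4 TPM at D3 and 45.7 to 61.6 TPM at D14, and the part of these markers in the COL17A1 result was not tested. In U87 COL17A1 was at 9.58, 11.9 and 7.64 TPM untreated, 1.58 and 5.57 TPM at D3, 14.9 and 6.76 TPM at D14, 3.75, 4.02 and 1.96 TPM at D28 and 3.10, 1.28 and 4.18 TPM at D28WO. It fell by 1.53 (SE 0.43, limma adjusted p = 0.0127) at D28WO, which was lost without D28WO replicate 2 (log2 −1.20), and by 1.35 (SE 0.43, limma adjusted p = 0.0392) at D28, which was lost without any 1 of the 6 libraries (values between −1.79 and −1.11 over all alternatives). COL25A1, a chain first found in amyloid plaques, was tested in U251 only and passed in no comparison.

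Basement membrane genes divided by chain. Of 8 tested in U251, 3 fell at D3, D14 and D28 and 2 at D28WO, while 0, 1, 1 and 2 rose. In U251, COL18A1, whose C-terminal fragment is endostatin, was at 144, 152 and 137 TPM untreated, 76.1, 83.7 and 81.8 TPM at D3, 100, 105 and 91.5 TPM at D14, 74.8, 79.6 and 81.2 TPM at D28 and 150, 150 and 144 TPM at D28WO. It fell by 0.83 (SE 0.06, limma adjusted p = 1.93e-07) at D3, 0.54 (SE 0.06, limma adjusted p = 4.25e-05) at D14 and 0.87 (SE 0.06, limma adjusted p = 1.14e-07) at D28, while D28WO did not pass (0.04, SE 0.06). The D28WO libraries were above D28 by 0.91 (SE 0.06, limma adjusted p = 3.48e-07) and overlapped with the untreated ones. COL4A6 was at 41.8, 40.6 and 38.1 TPM untreated, 12.6, 14.6 and 15.6 TPM at D3, 29.8, 28.0 and 30.5 TPM at D14, 23.5, 25.3 and 24.8 TPM at D28 and 19.5, 22.2 and 19.2 TPM at D28WO. It fell by 1.43 (SE 0.10), 0.43, 0.69 and 0.95 in the 4 comparisons, and its partner COL4A5 by 0.96 (SE 0.12), 0.47, 0.56 and 0.74, the D14 value of COL4A5 being lost without untreated replicate 1 or D14 replicate 3. COL4A1 rose by 0.37 (SE 0.07), 0.33 (SE 0.07) and 0.38 (SE 0.07) at D14, D28 and D28WO, and COL4A2 rose by 0.37 (SE 0.08, limma adjusted p = 0.00377) at D28WO. COL4A2 was at 153, 151 and 147 TPM untreated, 127, 132 and 148 TPM at D3, 170.3, 156 and 153 TPM at D14, 137, 146 and 172 TPM at D28 and 199, 199.7 and 184 TPM at D28WO. At D28WO, COL4A1 and COL4A2 both rose and COL4A5 and COL4A6 both fell, while COL4A2 did not pass at D3, D14 or D28.

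In U87 only 2 basement membrane genes passed. COL15A1 was at 19.5, 21.7 and 14.8 TPM untreated, 27.4 and 26.2 TPM at D3, 28.8 and 30.4 TPM at D14, 32.9, 28.9 and 26.4 TPM at D28 and 23.7, 25.3 and 26.7 TPM at D28WO, all above the untreated libraries. It rose by 0.64 (SE 0.14, limma adjusted p = 0.00685) at D28, or 0.45 over the median gene, a call lost only where no other group was in the fit (adjusted p = 0.0671). Its rises at the other times, 0.43 to 0.65, were lost with quantile normalization and without untreated replicate 3, and also without untreated replicate 1, D3 replicate 2 and D3 replicate 3 at D3, untreated replicate 1 and either D14 library at D14, and D28WO replicate 2 or 3 at D28WO. COL7A1, the anchoring fibril chain, was at 166, 138 and 189 TPM untreated, 132 and 164 TPM at D3, 169 and 144 TPM at D14, 129, 159 and 169 TPM at D28 and 89.7, 114 and 116 TPM at D28WO. It fell by 0.62 (SE 0.15, limma adjusted p = 0.00547) at D28WO. In U251 COL7A1 was at 41.4, 49.5 and 43.3 TPM untreated and 48.7, 83.8 and 76.9 TPM at D28, which overlapped, with a difference of 0.60 (SE 0.23, limma adjusted p = 0.0513). COL4A2, COL4A5 and COL4A6 passed in no comparison in U87, with log2 differences between −0.35 and 0.56.

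The fibril-associated genes held the largest falls among the collagen genes of U251. Of 8 tested, 4 fell at D3, D28 and D28WO and 0 at D14, and none rose against untreated cells. COL21A1 was at 53.9, 50.4 and 53.9 TPM untreated, 4.63, 6.92 and 6.84 TPM at D3, 47.4, 43.1 and 39.6 TPM at D14, 10.4, 11.4 and 12.2 TPM at D28 and 13.9, 12.4 and 12.8 TPM at D28WO. It fell by 2.93 (SE 0.13, limma adjusted p = 9.48e-10) at D3, 2.13 (SE 0.13, limma adjusted p = 2.23e-08) at D28 and 1.93 (SE 0.13, limma adjusted p = 9.75e-08) at D28WO, and D14 did not pass. COL9A3, a chain of type IX that decorates cartilage fibrils, was at 66.8, 54.0 and 45.6 TPM untreated, 5.91, 10.1 and 6.32 TPM at D3, 46.8, 55.3 and 54.4 TPM at D14, 9.81, 16.5 and 11.7 TPM at D28 and 20.2, 25.2 and 24.1 TPM at D28WO. It fell by 2.76 (SE 0.21, limma adjusted p = 1.71e-07) at D3 and 2.06 (SE 0.21, limma adjusted p = 2.75e-06) at D28. Its fall at D28WO was 1.21 (limma adjusted p = 0.000533), and its D14 libraries overlapped with the untreated ones. COL12A1 and COL14A1, relatives that bind the surface of type I fibrils, fell at D3 and D28 by less than COL21A1 and COL9A3 did. COL12A1 was at 145, 142 and 140 TPM untreated, 78.7, 52.8 and 74.7 TPM at D3 and 142, 157 and 132 TPM at D14. It was at 56.1, 65.3 and 46.6 TPM at D28 and 102, 96.3 and 94.7 TPM at D28WO. It fell by 1.06 (SE 0.14) at D3, 1.34 (SE 0.14) at D28 and 0.54 (limma adjusted p = 0.00888) at D28WO. COL14A1 was at 124, 128 and 124 TPM untreated, 91.7, 98.4 and 94.7 TPM at D3, 121, 133 and 122 TPM at D14, 78.4, 75.6 and 71.2 TPM at D28 and 135, 139 and 145 TPM at D28WO. It fell by 0.40 (SE 0.06) at D3 and 0.73 (SE 0.06) at D28 and did not pass at D14 or D28WO. COL16A1 was at 27.2, 16.9 and 36.8 TPM untreated, 18.7, 17.0 and 20.9 TPM at D3, 21.8, 26.8 and 21.5 TPM at D14, 27.2, 38.4 and 40.3 TPM at D28 and 13.7, 9.06 and 13.3 TPM at D28WO, lower at D28WO than at D28 by 1.48 (SE 0.24, limma adjusted p = 0.00043), and fell by 1.06 (limma adjusted p = 0.00444) at D28WO, a call lost with only the compared groups in the fit. COL9A2, COL19A1 and COL20A1 passed in no comparison in U251.

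In U87 the fibril-associated genes that passed against untreated cells were COL22A1, COL9A2, COL21A1 and COL16A1, of which COL21A1 and COL16A1 also passed in U251. COL22A1, a chain of tissue junctions, was at 14.4, 14.7 and 9.56 TPM untreated, 4.28 and 1.91 TPM at D3, 2.44 and 2.21 TPM at D14, 1.76, 1.55 and 0.514 TPM at D28 and 11.7, 6.09 and 7.46 TPM at D28WO. It fell by 1.80 (SE 0.37, limma adjusted p = 0.0075) at D3, 2.04 (SE 0.37, limma adjusted p = 0.0139) at D14 and 2.63 (SE 0.33, limma adjusted p = 0.000226) at D28, and was higher at D28WO than at D28 by 2.05 (SE 0.33, limma adjusted p = 0.00155). The D3 call was lost without D3 replicate 3 (log2 −1.37) and the D14 call without either D14 library. COL22A1 thus fell in the groups where COL5A3 rose, and both lay near their untreated levels at D28WO. COL9A2 was at 5.54, 3.46 and 2.75 TPM untreated, 6.37 and 4.61 TPM at D3, 3.45 and 4.09 TPM at D14, 6.20, 5.34 and 6.14 TPM at D28 and 19.0, 20.6 and 17.5 TPM at D28WO. It rose by 2.06 (SE 0.22, limma adjusted p = 2.67e-05) at D28WO and passed at no other time against untreated cells. COL21A1 was at 1.88, 0.456 and 1.21 TPM untreated, 0.352 and 0.750 TPM at D3, 0.605 and 1.94 TPM at D14, 0.721, 0.755 and 1.09 TPM at D28 and 5.21, 2.14 and 3.76 TPM at D28WO, a rise of 1.11 (SE 0.35, limma adjusted p = 0.0249) that was lost without untreated replicate 2 or 3 or D28WO replicate 1 or 3 and with quantile normalization (0.51 to 1.67 over the alternatives). COL16A1, a minor chain of fibril surfaces, was at 185, 169 and 166 TPM untreated, 160.0 and 190.2 TPM at D3, 152 and 182 TPM at D14, 165, 165 and 175 TPM at D28 and 148, 143 and 147 TPM at D28WO. The D28WO libraries lay below every other U87 library, and the other 4 groups overlapped. Its fall of 0.25 (SE 0.08, limma adjusted p = 0.0312) at D28WO was lost without untreated replicate 1 or any D28WO library and with quantile normalization (−0.47 to −0.11 over the alternatives).

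Type VI chains moved unequally. In U87, COL6A1 was at 233, 227 and 251.2 TPM untreated, 170 and 183 TPM at D3, 225 and 234 TPM at D14, 192, 194 and 190 TPM at D28 and 131, 150 and 145 TPM at D28WO. It fell by 0.42 (SE 0.07, limma adjusted p = 0.00278) at D3, 0.30 (SE 0.06, limma adjusted p = 0.00674) at D28 and 0.74 (SE 0.06, limma adjusted p = 6.13e-06) at D28WO, the D28 fall being lost with quantile normalization. COL6A2 lay between 337 and 418 TPM in every U87 library, with log2 differences from −0.10 to 0.00 as deposited, and was 0.29 higher at D28WO with quantile normalization. COL6A3, the longest chain of type VI, was at 371, 369 and 446 TPM untreated, 307 and 295 TPM at D3, 439 and 424 TPM at D14, 355, 338 and 366 TPM at D28 and 431, 422 and 389 TPM at D28WO. It fell by 0.39 (SE 0.08, limma adjusted p = 0.0106) at D3 and did not pass at D14, D28 or D28WO, and the D3 call was lost without either D3 library (values from −0.57 to −0.16 over the alternatives). In U251, COL6A1 was at 259, 256 and 272 TPM untreated, 142, 175 and 157 TPM at D3, 184, 182 and 173 TPM at D14, 140, 150 and 174 TPM at D28 and 214, 214 and 218 TPM at D28WO. COL6A1 fell in all 4 comparisons there, by 0.28 (SE 0.08) to 0.76 (SE 0.08), the D28WO call being lost without untreated replicate 3. COL6A2 was at 370, 353 and 380 TPM untreated, 354, 383 and 390 TPM at D3, 235, 227 and 197 TPM at D14, 311, 311 and 333 TPM at D28 and 453, 466 and 451 TPM at D28WO. It fell by 0.74 (SE 0.06, limma adjusted p = 2.63e-06) at D14 and rose by 0.31 (SE 0.06, limma adjusted p = 0.00203) at D28WO, and its D28 fall of 0.21 became 0.03 with quantile normalization. COL6A2 was therefore the only type VI chain whose lowest U251 group was D14. COL6A3 in U251 fell from 10.3, 10.8 and 5.21 TPM to 1.88, 1.73 and 1.84 TPM at D3, by 1.74 (SE 0.31, limma adjusted p = 0.000431). It was at 5.04, 7.98 and 7.96 TPM at D14, 1.89, 4.59 and 2.35 TPM at D28 and 2.17, 1.88 and 1.12 TPM at D28WO. Its falls were 1.31 (limma adjusted p = 0.00352) at D28 and 1.81 (limma adjusted p = 0.000516) at D28WO.

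The short-chain genes COL8A1 and COL8A2, whose products build the hexagonal network of the corneal Descemet membrane, moved apart in U251. COL8A1 was at 70.0, 72.4 and 73.1 TPM untreated, 25.1, 29.0 and 22.6 TPM at D3, 51.0, 55.6 and 55.9 TPM at D14, 36.8, 37.0 and 36.5 TPM at D28 and 30.5, 34.4 and 32.0 TPM at D28WO. It fell by 1.46 (SE 0.08, limma adjusted p = 1.37e-08) at D3 and 0.40 (limma adjusted p = 0.00413) at D14. Its falls were 0.95 (SE 0.08, limma adjusted p = 9.34e-07) at D28 and 1.13 (SE 0.08, limma adjusted p = 2.79e-07) at D28WO. COL8A2 was at 4.83, 3.76 and 2.16 TPM untreated, 8.27, 7.01 and 9.63 TPM at D3, 3.45, 2.66 and 3.15 TPM at D14, 8.54, 8.55 and 7.13 TPM at D28 and 5.17, 5.56 and 5.36 TPM at D28WO, and rose by 1.06 (SE 0.21, limma adjusted p = 0.00129) at D3 and 1.03 (SE 0.21, limma adjusted p = 0.00165) at D28. In U87, COL8A1 was at 106, 112 and 111 TPM untreated, 107 and 105 TPM at D3, 109.5 and 106 TPM at D14, 129, 116 and 129 TPM at D28 and 84.1, 92.2 and 102 TPM at D28WO. It fell by 0.25 at D28WO against untreated, which was lost without untreated replicate 2 or 3 or D28WO replicate 1 or 2, and was lower than D28 by 0.43. COL8A2 passed in no comparison, and COL10A1, the chain of hypertrophic cartilage, ranged from 0.186 to 8.19 TPM without passing (1.69, SE 0.57, limma adjusted p = 0.0632 at D3). COL28A1 was at 0.685, 0.207 and 0.499 TPM untreated, 1.09 and 1.07 TPM at D3, 1.44 and 0.988 TPM at D14, 0.586, 0.868 and 1.05 TPM at D28 and 1.02, 1.42 and 1.38 TPM at D28WO in U87 and passed in no U251 comparison. It passed at D28WO in U87 (0.65, SE 0.24, limma adjusted p = 0.0491), a call lost under 5 other settings and without 5 of the 6 libraries, all but untreated replicate 1 (0.10 to 1.38 over the alternatives).

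The calls of the lines are set side by side here. Among the 26 members tested in both, 4 fell in both at D3 (COL1A1, COL5A1, COL6A1 and COL6A3) and 2 at D28 (COL1A1 and COL6A1), none was shared at D14, and no member rose in both against untreated cells. At D28WO, 8 fell in both (COL1A2, COL5A1, COL5A2, COL6A1, COL8A1, COL13A1, COL16A1 and COL27A1). Of the 20473 genes tested in both lines, the share that fell in both lines was 2.25% for D3, 0.181% for D14, 2.61% for D28 and 5.95% for D28WO, and 1228, 180, 1648 and 1861 of these genes rose in both. Several shared calls were lost when 1 library was left out. At D3 these were COL1A1, COL5A1 and COL6A3 in U87 and COL1A1 in U251, and at D28 COL1A1 in both lines. At D28WO they were COL5A2, COL8A1, COL16A1 and COL27A1 in U87, the last (log2 −0.73, limma adjusted p = 0.0267) without untreated replicate 1 or 2 or D28WO replicate 1 or 2, and COL6A1 in U251 without untreated replicate 3. The only opposite call at D14 was COL1A2, which rose by 0.39 (SE 0.09, limma adjusted p = 0.0361) in U87 and fell by 0.75 in U251. The U87 call was lost without untreated replicate 1 or 2 or either D14 library and under 4 other settings, with values between 0.21 and 0.53 over the alternatives. Opposite calls at D28 were COL13A1 and COL17A1, which fell in U87 and rose in U251, and COL1A2, which rose in U87 and fell in U251. At D28WO they were COL11A1 and COL21A1, which rose in U87 and fell in U251, and COL17A1. Against D28, the washout libraries had COL1A2, COL5A1, COL5A2 and COL6A1 lower in U87 and higher in U251, COL13A1 higher in U87 and lower in U251, COL11A1 higher in both, and COL7A1 and COL27A1 lower in both, where 1.74% of all genes tested in both lines were higher in both and 3.16% lower in both. Of these, COL7A1 was lost under 3 settings and without 4 of 6 libraries in U87 and under 1 setting and without 3 libraries in U251. COL27A1 was lost in U251 with quantile normalization, with only the compared groups in the fit and without 4 of 6 libraries, and COL5A2 in U87 with only the compared groups in the fit and without 4 of 6. COL11A1 in U87 was lost without D28WO replicate 1. Over all genes tested in both lines, opposite calls made up 1.81% for D3, where no member had one, 0.596% for D14, 3.24% for D28, 2.74% for D28WO and 3.28% between D28WO and D28. The lines were not compared in a test.

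Genes that make and handle collagen were taken from 5 lists, and their counts stand beside the shares of all genes. In U251, 16.0% of all genes tested fell and 24.9% rose at D3, 7.31% fell and 13.8% rose at D14, 14.7% fell and 25.9% rose at D28, and 13.4% fell and 14.3% rose at D28WO. In U87, 4.28% fell and 12.4% rose at D3, 1.02% fell and 4.14% rose at D14, 6.55% fell and 17.2% rose at D28, and 13.4% fell and 28.6% rose at D28WO. Of 15 prolyl and lysyl modification genes, which include the hydroxylases that stabilise the triple helix, 12 fell and 1 rose in U251 at D3, 8 and 2 at D14, 11 and 2 at D28 and 7 and 2 at D28WO. P3H4, a partner of the lysyl hydroxylases, was at 133 to 161 TPM untreated and 54.6 to 62.2 TPM at D3 and fell by 1.37 (SE 0.09, limma adjusted p = 2.87e-08). In U87 the counts for this list were 3 and 0, 0 and 0, 3 and 0, and 11 and 0. Of the propeptide cleavage and cross-linking genes, 6 of 10 tested fell and 1 rose at D3 in U251, and 5 and 1 did so at D28. LOXL2, a lysyl oxidase that cross-links collagen, went from 276 to 300 TPM untreated to 76.6 to 86.0 TPM at D28 in U251 and fell by 1.82 (SE 0.05, limma adjusted p = 9.49e-12), while LOX, of the same family, rose from 19.2 to 21.5 TPM to 51.4 to 61.3 TPM, by 1.43 (SE 0.09, limma adjusted p = 4.42e-08). BMP1, which cuts the C-propeptides of fibrillar procollagens, fell by 1.41 (SE 0.09, limma adjusted p = 2.30e-08) at D3.

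LOXL4 moved apart between the lines. It fell by 1.85 (SE 0.10, limma adjusted p = 5.61e-09) at D3 in U251, where it was at 70.8 to 71.4 TPM untreated and 16.0 to 21.1 TPM at D3, and rose by 2.46 (SE 0.22, limma adjusted p = 2.34e-05) in U87, where it was at 0.891 to 1.32 TPM untreated and 10.2 to 10.99 TPM at D3. In U87, 3 of 11 cross-linking genes rose and 3 fell at D3, and 2 rose and 0 fell at D28. The procollagen peptidase gene ADAMTS2 rose by 1.95 (SE 0.21, limma adjusted p = 3.05e-05) at D28WO in U87, from 1.98 to 3.47 TPM to 11.99 to 13.4 TPM. Of 7 folding and export genes, 2 rose and 3 fell in U251 at D3, and 3 rose and 2 fell at D28, with CREB3L1, a transcription factor of secretory cells, at 2.85 to 7.45 TPM untreated and 14.98 to 19.9 TPM at D28 (1.65, SE 0.26, limma adjusted p = 0.000199).

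Receptors and fibril partners were mixed. Of 9 collagen receptors in U251, 5 fell and 3 rose at D3, D14 and D28. DDR1, the collagen-activated receptor kinase, fell by 1.07 (SE 0.06, limma adjusted p = 1.45e-08) at D28, while ITGA1, an integrin chain that binds collagen, rose by 1.27 (SE 0.20, limma adjusted p = 0.000191). ITGA1 also rose in U87 at D28, by 1.18 (SE 0.17, limma adjusted p = 0.000622), where 2 receptors rose and 3 fell. Of 9 fibril partners tested in U87, 1 rose and 3 fell at D28, and 2 rose and 2 fell at D28WO. Of 7 tested in U251, 2 rose and 3 fell at D28. SPARC, a matrix protein that binds fibrillar collagen, fell by 1.29 (SE 0.11, limma adjusted p = 3.90e-07) at D28 in U251. It fell by 1.27 (SE 0.10, limma adjusted p = 3.19e-06) at D28WO in U87. DCN (decorin), a proteoglycan on the fibril surface, rose by 2.75 (SE 0.23, limma adjusted p = 6.91e-06) at D28 in U87, from 4.68 to 9.15 TPM to 42.9 to 61.7 TPM.

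Markers of other cell types were read beside these results. The summed level of 7 fibroblast and pericyte markers in U251 was 623 to 662 TPM untreated, 267 to 290 TPM at D3, 476 to 514 TPM at D14, 325 to 354 TPM at D28 and 374 to 392 TPM at D28WO, the order of the groups in the fibrillar sum. LUM was below 0.5 TPM in all of these libraries, and DCN in those of the untreated and D28WO groups. The summed level of 8 glioma and astroglial markers followed the same order of groups, with D3 and D28 overlapping. It was 2991 to 3069 TPM untreated, 1178 to 1425 TPM at D3 and 2067 to 2453 TPM at D14. It was 1263 to 1486 TPM at D28 and 1748 to 1789 TPM at D28WO. OLIG2 was below 0.5 TPM in the untreated, D3 and D28WO libraries, and AQP4 in the D3, D28 and D28WO libraries. The summed level of 4 endothelial markers was 35.8 to 49.95 TPM untreated, 13.3 to 14.3 TPM at D3 and 30.1 to 43.0 TPM at D14. It was 20.7 to 22.4 TPM at D28 and 11.2 to 16.4 TPM at D28WO. In U87 the fibroblast and pericyte sum was 183 to 189 TPM untreated, 249 to 253 TPM at D3, 224 to 250 TPM at D14, 228 to 233 TPM at D28 and 196 to 220 TPM at D28WO. At D28WO in U87 other lists were lower without overlap: the glioma and astroglial sum was 1278 to 1523 TPM untreated and 1047 to 1124 TPM at D28WO, the sum of 4 leukocyte markers 311 to 376 TPM and 215 to 246 TPM (CD3E below 0.5 TPM in both groups), and the epithelial sum 9.60 to 18.7 TPM and 5.16 to 6.37 TPM. At D3 in U87 the glioma and astroglial sum was 1118 to 1199 TPM and the leukocyte sum 286 to 298 TPM, and at D14 the leukocyte sum was 263 to 302 TPM, again below the untreated libraries. In U251 the leukocyte sum was 135.0 to 144 TPM untreated, 98.6 to 111 TPM at D14 and 94.5 to 115 TPM at D28WO, with PTPRC and CD3E below 0.5 TPM in these groups. The part of these shifts in the collagen results was not tested.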

How the data were processed

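Bulk RNA of U87 and U251 cells was sequenced, and per the labels reads were handled with FastQC, Trim Galore, STAR, featureCounts and edgeR on GRCh38. The values used are the TPM tables that the authors deposited, 1 per line, in which each library sums to 1000000; how TPM was computed is not given in the sources used here, and a supplementary sheet of the study calls such matrices CPM, so scaling to length was checked (as given above) with GENCODE release 44 transcript lengths. TPM keeps no depth, so the depth of each library is unknown; the study's methods state a minimum number of reads per sample, which could not be checked on TPM. A pair of U87 columns, 2 in all, shared a name and were left out throughout.

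From these, every gene whose mean in a line reached 0.5 TPM (22918 in U87, 23667 in U251) was tested on log2(TPM + 1) with limma 3.58.1 in R 4.3.3, with a trended prior, 1 fit per line over its 5 groups and Benjamini-Hochberg adjustment over all genes tested. Treated groups were compared with untreated cells and D28WO with D28. P-values measure the spread between culture preparations of 1 line. Members and gene lists were chosen with earlier results of these data known. Members past an adjusted p of 0.05 and an absolute log2 fold change of 1 in a line were given in each of its libraries. So was the highest member of each named type. Chains sharing a promoter or trimer with these were given in this way only in part. Other values named (such as COL5A1 in U87) were chosen after they were seen. On simulated data, 63.5% of 200 genes changed by a log2 of 1 were recovered in U87 at D3, and 67% in U251. Alternatives were another pseudocount, no filter, 2 other scalings, array weights, a replicate block, only the compared groups, a size limit and each library left out. Promoter letters come from RefSeq (GRCh38.p14) and gene positions from GENCODE release 44. Columns of the authors' own comparisons were not used.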

Additional observations from a re-analysis of the deposited data

Results flagged for a closer look

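For 19 pairs of a gene and a comparison, every library of the later group lay on 1 side of the reference group in U87 and on the other side in U251. Of the 20473 genes tested in both lines, 6.77% did so at D3, 6.41% at D14, 6.46% at D28, 6.22% at D28WO and 8.85% between D28WO and D28, against 3.85%, 19.2%, 15.4%, 11.5% and 23.1% of the 26 collagen genes. The difference between the lines was not tested, as their tables were normalized separately. Values are log2 fold changes, U87 first.

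At D3, COL17A1 differed by −1.36 and 1.59. At D14, COL13A1 differed by −1.08 and 0.38, COL1A2 by 0.39 and −0.75, COL4A5 by 0.56 and −0.47, COL5A1 by 0.20 and −0.52, and COL5A2 by 0.32 and −0.39. At D28, COL13A1 differed by −2.66 and 1.16, COL17A1 by −1.35 and 2.56, COL1A2 by 0.38 and −0.96, and COL8A1 by 0.18 and −0.95. At D28WO against untreated cells, COL11A1 differed by 1.85 and −1.02, COL17A1 by −1.53 and 0.89, and COL21A1 by 1.11 and −1.93. Between D28WO and D28, COL13A1 differed by 0.98 and −2.23, COL1A2 by −0.94 and 0.42, COL5A1 by −0.52 and 0.48, COL5A2 by −0.37 and 0.52, COL6A1 by −0.44 and 0.48, and COL8A2 by 0.33 and −0.51. The U87 value did not pass the limma test for COL17A1 at D3 (adjusted p = 0.0721), for COL4A5, COL5A1 and COL5A2 at D14 (0.168, 0.210 and 0.123) or for COL8A1 at D28 (0.111), nor did the U251 value for COL13A1 at D14 (0.204). COL8A2 passed in neither line (0.350 and 0.0936).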

How the results depend on the processing

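The count of collagen genes changed in U87 was 8 at D3, 5 at D14, 8 at D28, 16 at D28WO and 14 between D28WO and D28. Without the filter on low values it was 5 at D3 and 3 at D14, and with only the compared groups in the fit it was 1 at D3 and 0 at D14. Leaving the D28WO libraries out of the fit, chosen after seeing the data, gave 3 at D14. With a log2 change over 1 required as well, it was 2, 3, 4, 6 and 6 in U87, and 1 at D14, 14 at D28, 7 at D28WO and 5 between D28WO and D28 in U251, from 14, 23, 20 and 18. Leaving out each library in turn gave 3 to 8, 1 to 4, 6 to 8, 9 to 14 and 10 to 13 in U87 and 18 to 20, 11 to 12, 21 to 23, 19 to 21 and 15 to 20 in U251; where 1 U87 library was left at D3 or D14 it was assumed to vary like the other groups. COL6A2 turned with quantile normalization, to 0.289 at D28WO in U87 (limma adjusted p = 0.00483) and to 0.031 at D28 in U251. The cause was not tested. Replicate numbers showed no pairing, as 0 same-numbered pairs deviated together by a correlation over 0.1 in either line. Per the study's methods, cultures were divided at D14 between continued IFN-γ and washout. The D28 and D28WO libraries may therefore share parent cultures, which these correlations cannot decide. The replicate block gave counts of 7, 4, 7, 15 and 14 in U87 and 20, 12, 24, 21 and 18 in U251. The depth of each library, beyond the minimum that the study's methods state, is unknown and limits low genes most.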
